A study of Homo sapiens with 4 samples.

Results

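The genes for the ID proteins and for the core of BMP/SMAD signalling were examined in K562 cells. K562 is an established human leukemia line of chronic myeloid origin, in which hemin, the oxidized form of heme, induces erythroid genes. The 10 genes were listed by symbol: ID1, ID2, ID3, ID4, SMAD1, SMAD5, SMAD6, SMAD7, BMPR1A and BMPR2. Of these, 9 had a probe set named in the array annotation used, out of 17687 named genes and 20893 transcript probe sets measured, and BMPR1A is not analysed here. Each of the 9 had 1 probe set, so the choice of the one with the highest mean did not matter. RNA was taken from untreated K562 cells (0 h) and from K562 cells after 24 h in 50 µM hemin, and was hybridized to Human Clariom S arrays, 2 per time point, labelled as biological replicates. The methods for hemin differentiation add DMSO as vehicle, and whether the cells at 0 h had received it is not given in the sources used here. There was no 24 h culture without hemin, and the effects of hemin and of time in culture cannot be told apart. How far the replicates were separate cultures is not described in the sources used here. The p-values therefore cover the spread between arrays, which may be technical.

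Bone morphogenetic proteins (BMPs) are secreted ligands that join type I and type II receptor kinases at the cell surface. The active type I receptor phosphorylates SMAD1, SMAD5 or SMAD9, which enter the nucleus with SMAD4, and ID1, ID2 and ID3 are among the best known genes that this complex switches on. SMAD6 and SMAD7 are inhibitory SMADs that are themselves induced by the pathway and hold it back. ID proteins carry a helix-loop-helix domain but no DNA-binding region, and by pairing with E proteins such as TCF3 and TCF12 they keep them from pairing with tissue-specific partners such as TAL1, a factor of blood and erythroid cells.

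The values are log2 intensities, normalized by the authors with RMA, so that a difference of 1 is a doubling. Values were read against a dim line of 5.70, under which 95% of 349 olfactory receptor genes lie by mean, and a value under it is not taken as a measured level. A higher floor, 7.56, was set in the same way from 612 negative control probe sets. The median log2 value of the arrays ranged from 6.10 to 6.24, and the arrays of 1 time point correlated at r = 0.982 and 0.988 across probe sets, which are not independent of each other. Of 10 marker genes of K562 and the erythroid lineage, 6 had a named probe set, and each of these was above the dim line in mean. The number of arrays limits the precision.

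The genes were chosen with their change from 0 h to 24 h known, so their levels and changes are given as a description and without a p-value. In a limma fit over all 20893 probe sets, called at an adjusted p under 0.05 after Benjamini-Hochberg adjustment, ID1, ID2 and ID3 were called lower at 24 h, 3 of the 9, and none was called higher. Over all probe sets 0.120% were called lower and 0.823% higher, or 0.943% in either direction. Among the 11496 probe sets with a mean above the dim line, 0.209% were called lower and 1.42% higher. All 9 genes had a fitted change below 0, as did 55.1% of all probe sets. The changes ran from -3.54 for ID3 to -0.10 for SMAD5, with a median of -0.68 against -0.06 over all probe sets. In 7 of the 9, both arrays at 24 h lay below both at 0 h, a pattern found in 24.9% of all probe sets and in 27.3% of those with a mean above the dim line, and in SMAD5 and SMAD6 the time points overlapped. Over all probe sets, 18.8% had both arrays at 24 h above both at 0 h, and 43.6% were apart in either direction. Of the 9 genes, 5 were above the dim line in all 4 arrays, 3 in some of them, and SMAD1 in none.

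**Figure D1:**
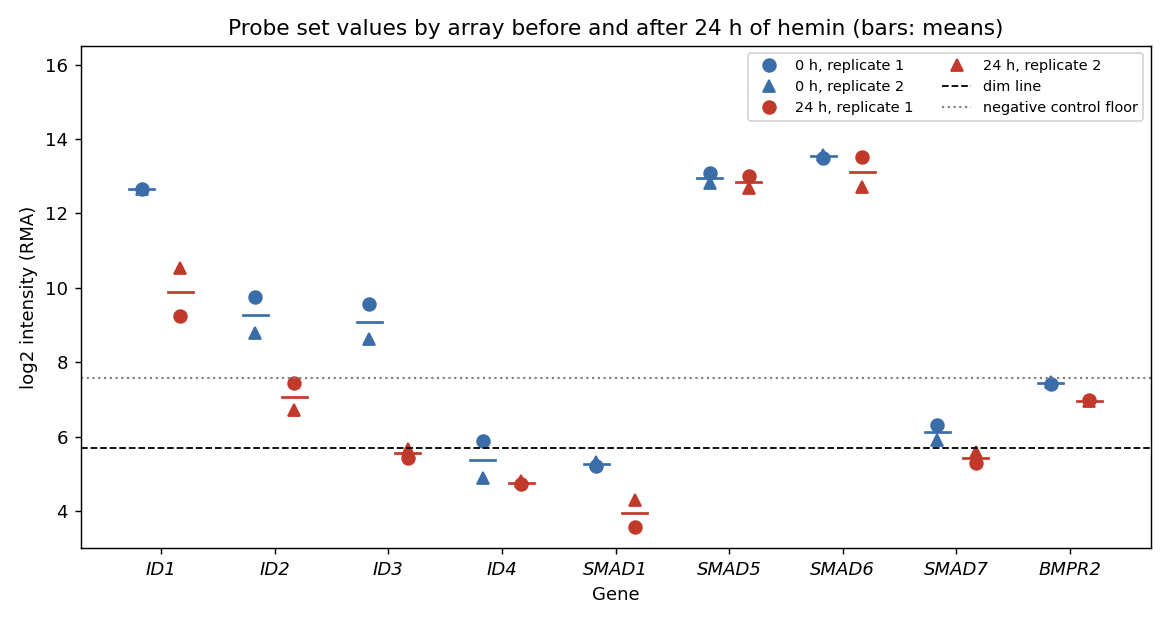
Log2 intensity (RMA) of the 9 genes in each of the 4 arrays, 0 h in blue and 24 h in red, with circles for replicate 1, triangles for replicate 2, short bars for means, a dashed line at the dim line and a dotted line at the negative control floor. ID1, ID2 and ID3 are clearly separated between time points, and SMAD5 and SMAD6 overlap.

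The ID genes were described first, because the largest changes lay there. Since ID1, ID2 and ID3 were lower together, the bases before their transcription start are shown, from the RefSeq promoter windows of GRCh38.p14. Each line gives the 250 bases before the annotated start, 5′ to 3′ on the gene's own strand. Capitals mark matches, on both strands, to any of 7 motifs. A GC-rich motif bound by SMAD1 and SMAD5 was searched as GGCGCC, and the SMAD box as CAGAC. The E-boxes were searched as CACGTG and, in its other common form, as CAGCTG. The GATA motif was searched as AGATAA, the TATA box as TATAAA, and the CCAAT box by the letters of its name. The CCAAT box was added after the sequences had been read. All coordinates are those of the RefSeq windows, not of the array's probes.
ID1 (chr20:31605039-31605288, + strand): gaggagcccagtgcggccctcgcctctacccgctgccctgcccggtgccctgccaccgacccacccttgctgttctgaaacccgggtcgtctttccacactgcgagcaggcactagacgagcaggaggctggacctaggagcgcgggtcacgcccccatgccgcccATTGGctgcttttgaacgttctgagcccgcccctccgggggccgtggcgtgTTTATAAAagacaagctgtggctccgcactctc
ID2 (chr2:8681806-8682055, + strand): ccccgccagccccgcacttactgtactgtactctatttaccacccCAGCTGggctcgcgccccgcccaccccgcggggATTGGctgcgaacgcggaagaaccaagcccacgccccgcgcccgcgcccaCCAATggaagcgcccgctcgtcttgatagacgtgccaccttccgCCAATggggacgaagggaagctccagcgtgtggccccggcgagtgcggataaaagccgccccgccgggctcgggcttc
ID3 (chr1:23559502-23559751, - strand): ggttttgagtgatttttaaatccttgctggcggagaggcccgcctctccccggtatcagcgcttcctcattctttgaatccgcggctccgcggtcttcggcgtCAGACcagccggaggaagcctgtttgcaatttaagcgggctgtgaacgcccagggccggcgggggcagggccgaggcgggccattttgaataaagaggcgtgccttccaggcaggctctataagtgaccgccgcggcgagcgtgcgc

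No motif of the 7 was shared by the windows of ID1, ID2 and ID3. ID1 held a TATA box on either strand, 26 and 28 bases before the start and overlapping, and 1 CCAAT box. ID2 held 3 CCAAT boxes and 1 CAGCTG E-box, and ID3 held 1 SMAD box. None of these windows held the GC-rich motif, the CACGTG E-box or the GATA motif. Bases further upstream or after the start were not searched, so the genes may hold these motifs elsewhere. Of 35116 windows of the same length, 10.7% held the TATA box, 32% the CCAAT box, 38% the SMAD box and 14% the CAGCTG E-box. The GC-rich motif was found in 16.4%, the CACGTG E-box in 6.34% and the GATA motif in 9.17%. GC content was 66% for ID1, 69.2% for ID2 and 62% for ID3, against a median of 58% over all windows. A match is a description of these letters and not a bound site. ID4, by comparison, held 1 SMAD box, 1 CAGCTG E-box, 1 TATA box and 1 CCAAT box.

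ID1, the best studied direct target of BMP signalling in the family, was measured at log2 values of 12.66 and 12.66 in the arrays at 0 h and at 9.25 and 10.54 in those at 24 h. The arrays at 0 h were alike, and the spread lay at 24 h, where replicate 2 stood 1.29 above replicate 1, a gap reached or passed by 1.9% of probe sets. The higher array at 24 h was still 2.11 below the lower array at 0 h. The log2 change was -2.77 (standard error 0.43), a 6.80-fold lower level, and it was -2.12 without replicate 1 and -3.41 without replicate 2 of 24 h. ID1 was above the negative control floor in every array.

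ID2, which is also known as a partner of the retinoblastoma protein, was measured at 9.75 and 8.79 at 0 h and at 7.45 and 6.71 at 24 h. The time points did not overlap, with a gap of 1.34 between the nearest arrays, and within each time point replicate 1 was the higher. The log2 change was -2.19 (standard error 0.41), or 4.57-fold lower. Both arrays at 24 h were above the dim line but below the negative control floor, against which ID2 was at least 3.27-fold lower. For such a bound, any value under the line in question is set to that line at the dimmer time point before the means are compared.

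ID3 had the largest fitted fall of all 20893 probe sets, with ID1 at rank 3 and ID2 at rank 10. Its values were 9.57 and 8.62 at 0 h and 5.43 and 5.67 at 24 h, so it went from above both lines in each array at 0 h to below the dim line in each at 24 h. The nearest arrays of the time points were 2.95 apart. With no measured level at 24 h, ID3 was at least 10.5-fold lower, or at least 2.89-fold against the negative control floor. The fitted log2 change was -3.54 (standard error 0.38).

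ID4, the member of the family that is mainly known from the nervous system, was measured at 5.87 and 4.88 at 0 h and at 4.72 and 4.81 at 24 h. Only replicate 1 of 0 h was above the dim line, so ID4 had no measured level at 24 h and no fold change is given. At 0 h, replicate 1 exceeded replicate 2 by 0.95 in ID2, 0.96 in ID3 and 0.99 in ID4, but by 0.01 in ID1. A gap of that size between these arrays is not rare: 10.6% of probe sets had one at least as large as that of ID2, and 9.38% one at least as large as that of ID4. Without replicate 1 of 0 h, 0 of the 9 genes were called, and without replicate 2 of 0 h only ID3 was. Over all probe sets, these settings called 0 and 2 lower. With either array at 24 h left out, ID1, ID2 and ID3 were called.

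**Figure D2:**
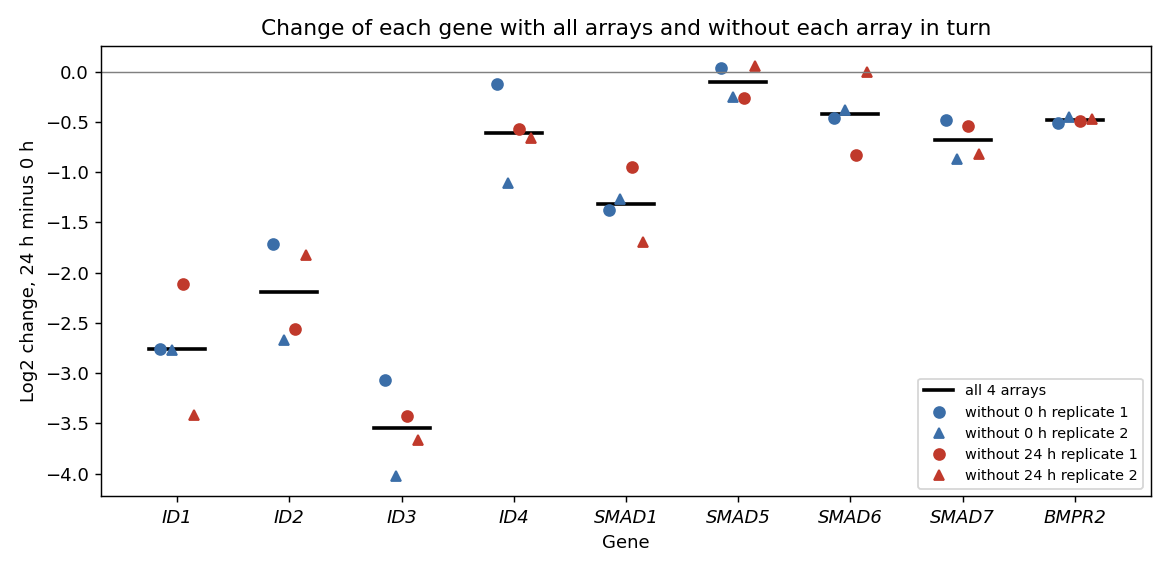
Log2 change from 0 h to 24 h of each of the 9 genes with all 4 arrays (black bars) and with each array left out in turn (blue, an array at 0 h; red, an array at 24 h). ID1, ID2 and ID3 are at or below -1.71 in each setting, while the changes of SMAD5 and SMAD6 come to 0.05 and -0.0042 at their highest.

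None of the 4 SMAD genes was called. SMAD1 and SMAD7 lay too near or below the dim line to show a fall of the size of ID3, while SMAD5 and SMAD6 were well above it. SMAD5, a signal-carrying SMAD of the BMP branch, was measured at 13.09 and 12.81 at 0 h and at 13.00 and 12.69 at 24 h, a log2 change of -0.10 (standard error 0.32). Its time points overlapped, and without either replicate 1 of 0 h or replicate 2 of 24 h the fitted change was above 0, at 0.04 and 0.05. SMAD1, the other signal-carrying SMAD listed, read 5.20 and 5.31 at 0 h and 3.56 and 4.31 at 24 h. All 4 arrays were below the dim line, so SMAD1 had no measured level at either time, although its values were lower in both arrays at 24 h.

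SMAD6, an inhibitory SMAD that acts mainly on BMP receptors, was measured at 13.49 and 13.57 at 0 h and at 13.53 and 12.70 at 24 h. Replicate 1 of 24 h lay between the arrays at 0 h, and replicate 2 was the only array set apart. The log2 change was -0.42 (standard error 0.36), and it was -0.83 without replicate 1 and -0.0042 without replicate 2 of 24 h. SMAD7, which holds back both the BMP and the TGF-beta branch, was measured at 6.31 and 5.92 at 0 h and at 5.30 and 5.58 at 24 h. It was above the dim line at 0 h and below it at 24 h, which makes it at least 1.33-fold lower. It was below the negative control floor in all arrays and has no bound there.

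Of the receptors, BMPR2, the type II receptor used by most BMPs, was measured at 7.42 and 7.48 at 0 h and at 6.97 and 6.95 at 24 h. The arrays of a time point differed by 0.06 and 0.02, and the time points were 0.44 apart at their nearest. The log2 change was -0.48 (standard error 0.31), or 1.40-fold lower. All 4 values lay between the dim line and the negative control floor. BMPR2 was not called by limma, which takes part of its variance from all probe sets. The methods' ANOVA, which uses the spread of each probe set alone, passed BMPR2 and ID3 at its stated P-value. It did not pass ID1 or ID2. Over all 20893 probe sets it passed 1071 lower and 859 higher at that P-value. That ANOVA passed no probe set after Benjamini-Hochberg adjustment.

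**Figure D3:**
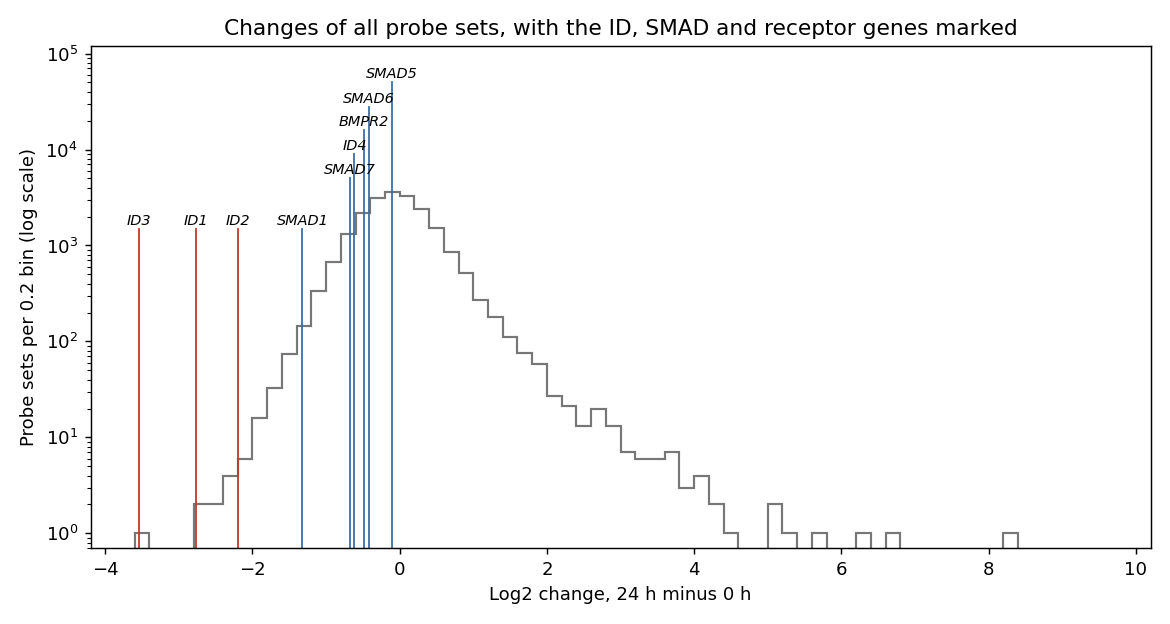
Number of probe sets (log scale) by log2 change from 0 h to 24 h in bins of 0.2, with the 9 genes marked by vertical lines, red where called and blue where not. ID3, ID1 and ID2 lie in the far left tail at -3.54, -2.77 and -2.19, and the other 6 lie between -1.32 and -0.10.

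The rest of the pathway was then followed in 6 lists of other genes, drawn up by role: ligands, receptors and co-receptors, SMADs and their regulators, extracellular antagonists, other BMP and TGF-beta target genes, and basic helix-loop-helix (bHLH) factors. Of their 133 genes, 122 had a named probe set, and 61 of these had a mean above the dim line. In the fit over all probe sets, 3 of the 122 rose and 0 fell, against 0.823% and 0.120% of all probe sets. Before adjustment, 12 were higher and 5 lower with p under 0.05, where all probe sets gave 6.28% higher and 6.62% lower. These counts include genes with no measured level. NODAL, RGMB and NOG, among those higher, and MSX1, among those lower, were under the dim line on every array. They are named after their values were seen. The median log2 change of the 122 was -0.10, against -0.06 over all probe sets. Thus none of the 122 was called lower, and those that rose were GDF15, INHBE and CDKN1A.

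Among the ligands, 30 of 33 had a named probe set and 18 of these lay under the dim line on every array. BMP2, BMP4, BMP6 and BMP7, named after their values were seen, were among these 18. GDF15, a distant relative of the BMPs known as a secreted marker of cell stress, was measured at 5.40 and 5.88 at 0 h and at 8.43 and 7.65 at 24 h. By the dim line, GDF15 was higher by at least 4.75-fold, with an adjusted p of 0.019 in limma, or by at least 1.39-fold against the negative control floor. INHBE, which encodes the inhibin beta E subunit, went from 4.58 and 4.48, below the dim line, to 6.58 and 6.84. Its rise was at least 2.02-fold, with an adjusted p of 0.013 in limma, and it stayed below the negative control floor. TGFB1, the main TGF-beta ligand of blood cells, had a log2 change of 1.13 ± 0.41 (standard error) with an adjusted p of 0.28 in limma, from 11.86 and 10.64 at 0 h and 12.39 and 12.38 at 24 h. Without replicate 1 of 0 h it was 1.74, and without replicate 2 of 0 h it was 0.52. LEFTY1 had a log2 change of -0.19 (adjusted p = 0.85). GDF11 was measured at 6.38 and 6.38 at 0 h and at 6.67 and 5.40 at 24 h, the last under the dim line. Its time points overlapped, so no bound is given (adjusted p = 0.79 in limma).

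Of the 16 other receptors and co-receptors, 0 were called, while before adjustment 2 were higher and 1 lower. On every array 5 of the 16 lay under the dim line. RGMB, BMPR1B and TGFBR2, named after their values were seen, were among these 5, and RGMB was 1 of the 2 higher before adjustment. ACVR1, a type I receptor for BMPs also called ALK2, was measured at 8.61 and 7.47 at 0 h and at 9.07 and 9.43 at 24 h. Both arrays at 24 h were above both at 0 h, but the log2 change of 1.21 (standard error 0.41) did not pass the adjustment (adjusted p = 0.24 from limma). It was 1.78 without replicate 1 and 0.64 without replicate 2 of 0 h. TGFBR1, the type I receptor of TGF-beta, had a log2 change of -0.82 (adjusted p = 0.29). AMHR2, the receptor of anti-Mullerian hormone, was measured at 8.74 and 8.46 at 0 h and at 8.60 and 6.92 at 24 h, a log2 change of -0.84 (adjusted p = 0.53) that rested on replicate 2 of 24 h. Without that array it was -0.0028, and without replicate 1 of 24 h it was -1.68. HJV, hemojuvelin, a BMP co-receptor of iron control in the liver, was under the dim line at 0 h and had a bound of at least 1.19-fold higher (adjusted p = 0.65).

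Among SMADs and their regulators, 0 of 23 were called. SMAD4, the shared partner of all signal-carrying SMADs, had a log2 change of 0.15 with a 95% interval from -0.54 to 0.84, and SMAD2, of the TGF-beta and activin branch, of -0.05 with an interval from -0.79 to 0.69. These intervals leave room for changes in either direction. SMAD3, the other SMAD of the TGF-beta branch, was measured at 9.27 and 8.99 at 0 h and at 10.43 and 10.26 at 24 h, a log2 change of 1.21 ± 0.32 (standard error) with an adjusted p of 0.13 in limma. SMAD9, the third signal-carrying SMAD of the BMP branch, was above the dim line in 1 array only. NEDD4L, a ubiquitin ligase that marks SMAD2 and SMAD3 for degradation, was measured at 9.40 and 9.31 at 0 h and at 10.62 and 10.65 at 24 h. Its log2 change was 1.28 ± 0.31 (standard error) with an adjusted p of 0.10 in limma, and limma with trend and robust variance called it higher (adjusted p = 0.043). TGIF2, a SMAD corepressor, and STUB1, a ubiquitin ligase, had log2 changes of -1.01 and -0.78 (adjusted p of 0.23 and 0.42), the second of which was -0.32 without replicate 1 of 0 h.

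**Figure D4:**
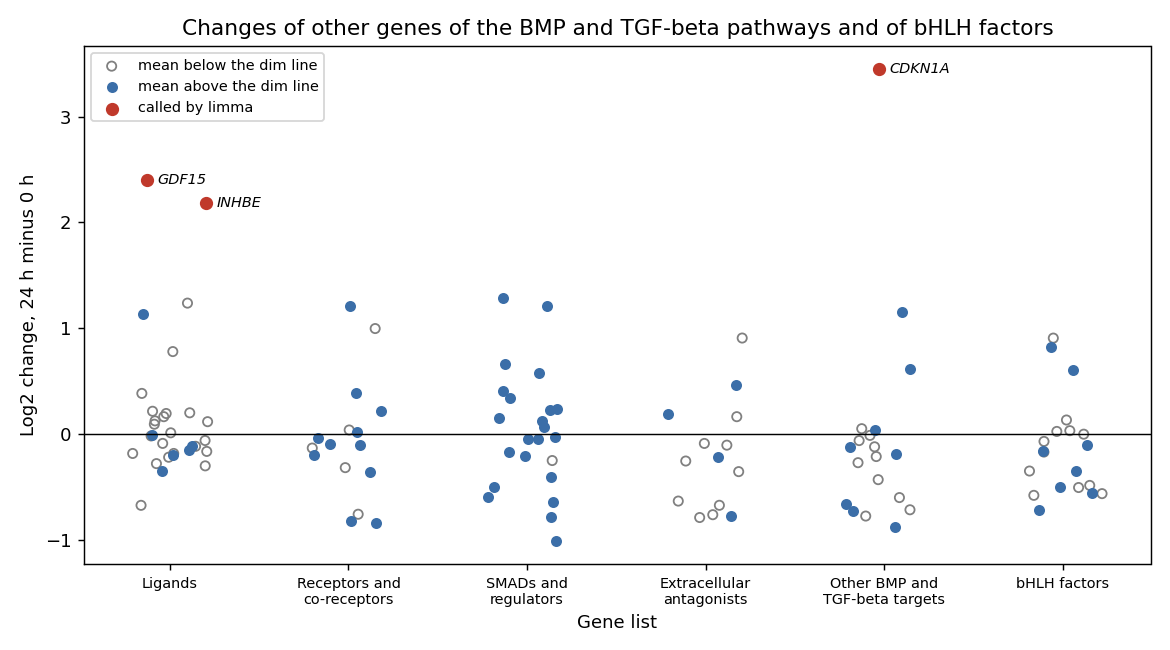
Log2 change from 0 h to 24 h of the 122 other pathway genes and bHLH factors by list, with called genes in red, other genes with a mean above the dim line in blue and those below it as open circles. Only GDF15, INHBE and CDKN1A were called, with fitted changes of 2.40, 2.18 and 3.44, and horizontal scatter within a list has no meaning.

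None of 14 extracellular antagonists was called, and 9 lay under the dim line on every array. Of those with a mean above the line, SOSTDC1, a secreted BMP and WNT antagonist, had a log2 change of -0.78 (adjusted p = 0.41 from limma), BMPER of 0.46 and TWSG1, twisted gastrulation, of -0.22 (adjusted p of 0.60 and 0.82). FSTL3, a follistatin-like activin inhibitor, was under the dim line in both arrays at 0 h, and its bound was at least 1.07-fold higher (adjusted p = 0.84). Of 19 other target genes of the BMP and TGF-beta branches, 1 rose. It was CDKN1A, which encodes the CDK inhibitor p21 and is switched on by TGF-beta but also by p53 and by several stress pathways. CDKN1A was measured at 4.22 and 5.21 at 0 h, below the dim line, and at 8.54 and 7.78 at 24 h. Its rise was at least 5.52-fold, with an adjusted p of 0.0056 in limma, or at least 1.52-fold against the negative control floor. TSC22D1, a gene induced by TGF-beta, had a log2 change of 1.15 and GATA2, a stem and progenitor cell factor that BMP4 induces, of -0.73 (adjusted p of 0.15 and 0.36). JUNB, a subunit of the AP-1 factor, was measured at 5.78 and 7.57 at 0 h and at 6.08 and 5.52 at 24 h, the last under the dim line. The time points of JUNB overlapped, so no bound is given (adjusted p = 0.54 in limma). Its fitted log2 change was -1.77 without replicate 1 and 0.02 without replicate 2 of 0 h. Without replicate 1 of 0 h the calls of CDKN1A, GDF15 and INHBE were lost (adjusted p of 0.078, 0.15 and 0.097), and without replicate 2 of 0 h those of GDF15 and INHBE were (adjusted p of 0.11 for each).

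Of the bHLH factors, which include the E proteins that ID proteins bind, 20 of 22 had a named probe set and 0 were called. TCF3, the gene of E12 and E47, was measured at 10.89 and 10.60 at 0 h and at 10.22 and 10.16 at 24 h, a log2 change of -0.55 ± 0.31 (standard error) with an adjusted p of 0.51 in limma. TCF12, which encodes HEB, had a log2 change of -0.10 with a 95% interval from -0.79 to 0.59, and TCF4 of 0.60 (adjusted p = 0.47). TAL1 was measured at 10.62 and 9.47 at 0 h and at 10.70 and 11.03 at 24 h, a log2 change of 0.82 (standard error 0.41, adjusted p = 0.45) that came to 1.39 and 0.25 when replicate 1 or 2 of 0 h, respectively, was left out. Its relative LYL1 had a log2 change of -0.72 (adjusted p = 0.41). No change of an E protein or of TAL1 passed the test in the arrays in which ID1, ID2 and ID3 were lower.

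Genes of like pattern were sought by the Euclidean distance between centred log2 values over the 4 arrays. Distance was taken to the mean of the centred profiles of ID1, ID2 and ID3. The nearest genes were sought among 9980 named genes with a mean above the dim line. They were GPR85, an orphan receptor, at a distance of 0.422, CKMT1B, a mitochondrial creatine kinase, at 0.486, IL1RL1, the receptor of interleukin-33, at 0.816, MBLAC2 at 0.899 and IL18R1, a subunit of the interleukin-18 receptor, at 0.944. All 5 were called lower, which follows from choosing genes near a profile with a large fall and is no separate result. IL1RL1 and IL18R1 were below the dim line in both arrays at 24 h, and passed the filter on the mean through their values at 0 h. The measure uses 4 values per gene. GPR85, the nearest, was measured at 11.25 and 10.57 at 0 h and at 8.02 and 8.71 at 24 h. For the mean profile of SMAD6 and SMAD7 the nearest were CDK5RAP1, DMAC2L, FLYWCH2, EFNA3 and CINP, at distances of 0.0329 to 0.0536. None of these was called, and the profile they were chosen for has a small change. SMAD6 and SMAD7 were themselves unlike over the arrays. At 24 h SMAD6 was set apart only in replicate 2, while SMAD7 was lower in both arrays and under the dim line. A gene near their mean therefore need not follow either of them.

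Marker genes of other cell types were read in the same arrays. The samples were cultures of the K562 line, so these genes are read as expression in that line and not as cells of other types. RNA from fewer cells in a given state and less RNA per cell cannot be told apart in bulk samples. None of 8 megakaryocyte, 7 myeloid, 7 lymphoid and 9 stromal, endothelial and epithelial markers with a named probe set was called. The last list had the lowest median log2 change of these lists, -0.49. Its mean log2 level was 7.45 and 7.59 at 0 h and 6.87 and 7.21 at 24 h. Before adjustment, 3 of its 9 genes (DCN, PECAM1 and EPCAM) were lower, where all probe sets gave 6.62% lower. DCN and PECAM1 were below the dim line in both arrays at 24 h, with bounds of at least 1.62-fold and 1.97-fold lower. Of the 9, KDR, CDH5 and COL1A1 were below the dim line in all arrays, and 6 had a mean above it. Of these 6, COL1A2 and the epithelial genes EPCAM and KRT8 were above the negative control floor in every array. A relation of these markers to the fall of the ID genes was not tested. The 6 erythroid markers had a median log2 change of -0.04, with 1 gene higher and 1 lower before adjustment and 0 called. HBE1, an embryonic globin gene, had a log2 change of 0.91 and HBZ, another, of 0.58 (adjusted p of 0.25 and 0.60 from limma). GATA1, the master regulator of erythroid genes, had one of -1.04 (adjusted p = 0.18), KLF1, an erythroid factor, of -0.45, TFRC, the transferrin receptor, of -0.10 and ALAS2, an enzyme of heme synthesis, of 0.03.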

How the data were processed

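The values are the log2 intensities that the authors deposited for each probe set. By the study's methods, RNA was labelled for Human Clariom S arrays, and Affymetrix Expression Console with RMA corrected the background, took log2 and normalized by quantiles, which leaves changes relative to the bulk of probe sets. Partek was used for an ANOVA. For versions and genome build: not given in the sources used here.

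Of 24351 rows, 2903 controls and 555 unmapped transcripts were set aside. The remaining 20893 were fitted with limma (version 3.58.1, R 4.3.3), by lmFit and eBayes without covariates. Two-sided p-values for 24 h minus 0 h were adjusted by Benjamini-Hochberg and called under 0.05, with 7.47 prior degrees of freedom. Names came from the platform annotation of GEO (17705 probe sets with 1 symbol, 3188 unnamed here). An array has no read depth, so precision rests on 2 arrays per time point. The test was run on simulated data with known changes. Most changes of 1 log2 unit and some of 2 log2 units were not called there. A gene that was not called may therefore still have changed.

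The members and the lists were chosen with earlier results of these data known. Named were all members, in each list every called gene and the 4 with the largest difference among those with a mean above the dim line, TCF3, TCF12, TAL1, LYL1, SMAD2, SMAD3, SMAD4 and SMAD9, and the nearest genes by pattern; others are said to be so. Alternatives were another normalization, median centring, other variance models, array weights, a replicate block, the methods' ANOVA, a filter on dim probe sets and leaving out each array.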

Additional observations from a re-analysis of the deposited data

How the results depend on the processing

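The log2 changes of the 9 genes moved by less than the spread between replicates under quantile normalization and median centring, while array weights and a replicate block act on the error and leave them as they are. Leaving out an array moves a change by a fixed share of the replicate gap and says nothing of stability: SMAD6 ranged from -0.83 to -0.0042 and ID4 from -1.11 to -0.12. The bound of ID3 moved from at least 10.5-fold to at least 2.89-fold on the negative control floor. ID1, ID2 and ID3 were called lower with quantile normalization, median centring, array weights and a replicate block, and leaving out each array in turn gave 0 to 3 members called lower, 0 to 3 pathway genes called higher, and over all probe sets 0 to 88 lower and 27 to 304 higher, the low ends without replicate 1 of 0 h. ID1, ID2 and ID3 were chosen with this contrast known, so their calls under other settings are no separate result. Over all probe sets, 25 were lower and 172 higher in the fit as reported. Those lower numbered 47 with median centring, 63 with a filter on dim probe sets, 159 under trend and robust variance and 110 with a replicate block, and those higher were 387 and 319 under the last of these settings. Replicates with the same number did not deviate together (r = -0.003 across probe sets). A correlation takes out any shift common to all probe sets, so such a shift was not tested. It also cannot settle whether the numbers pair the cultures, which is not described in the sources used here. The methods' ANOVA gave 1071 lower and 859 higher probe sets and 7 lower and 9 higher pathway genes at its stated P-value, but 0 of each after adjustment, members included. Of the 9 genes, it passed BMPR2 and ID3 at that P-value, but not ID1 or ID2. At the dim end, ID4, SMAD1 and SMAD7 cannot be measured well on these arrays. The mean over several probe sets of a gene was not run, since each member had 1.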
